A study of Homo sapiens with 6 samples.

Results

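Glutamine and serine are the amino acids on which proliferating cancer cells draw most for nitrogen and for one-carbon units, and 9 genes of their transport and metabolism are described here. They were chosen by name, as GLUD1, GLUL, ASNS, SLC1A5, PHGDH, PSAT1, PSPH, SHMT1 and SHMT2, out of 22933 gene symbols in the table, and all 9 were found, each at a single locus. PC-3 is an established prostate cancer cell line derived from a bone metastasis. Both groups carried the Tet-On transactivator rtTA2 under G418 selection and received 300 ng/ml doxycycline (Dox) for 4 hours. The control group of 3 samples carried the tdTom retrovirus, and the other group of 3 samples carried the TTP-tdTom retrovirus, which encodes tristetraprolin (TTP), an RNA-binding protein that delivers AU-rich mRNAs to decay. In both vectors tdTomato was driven by the PGK promoter and used to sort the cells, so that each group was a sorted, transduced population. Every level below is the authors' group value in FPKM, which is fragments scaled to transcript length and to library size. As 1 FPKM value per group and locus was used, no spread between samples is given and no test was run, and a difference is described by its size and by its place among all genes.

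The enzymes act in short chains. SLC1A5 carries glutamine into the cell, GLUD1 turns glutamate into the citric acid cycle intermediate alpha-ketoglutarate in mitochondria, GLUL makes glutamine from glutamate and ammonia, and ASNS spends the amide nitrogen of glutamine on asparagine. PHGDH, PSAT1 and PSPH catalyse in that order the steps from a glycolytic intermediate to serine, and the PSAT1 step takes its nitrogen from glutamate, which links the chains. SHMT1 in the cytosol and SHMT2 in mitochondria split serine into glycine and a one-carbon unit carried by folate.

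The targeted gene was examined first. ZFP36, which encodes TTP, stood at 5.56 FPKM in tdTom and 5.54 in the group labelled TTP-tdTom, a log2 ratio of -0.0044, so no higher level was seen at this locus under that label. Whether fragments of the transgene could be counted there was not tested, and every direction below rests on the label. By immunoblot, the paper reports TTP protein in cells with the TTP vector after the Dox time used here. By quantitative PCR after the same time, it reports lower levels of selected metabolic genes in those cells than in tdTom cells. Neither assay is part of the values used here, whose labels were not tested. The epithelial keratin KRT18 stood at 98.2 FPKM in tdTom and 91.5 in the group labelled TTP-tdTom, and EPCAM at 15.1 and 16.8, whereas the epithelial cadherin CDH1 was at 0.119 and 0.390. Of the markers of other cell types, 4 of 4 for leukocytes, 3 of 4 for endothelium and 2 of 4 for fibroblasts were below 1 in both groups. The exceptions were the endothelial receptor gene KDR, at 7.69 FPKM in tdTom and 4.38 in the group labelled TTP-tdTom, and the fibroblast collagens COL1A1, at 4.34 and 4.56, and COL3A1, at 2.46 and listed at 0. Of the 22933 symbols, 12511 had a mean FPKM of the groups of at least 1 and a value above 0 in both, and these are the genes compared. Their median log2 ratio (group labelled TTP-tdTom over tdTom) was -0.24, so that the typical gene was lower, and 79.9% of them had a lower FPKM.

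All 9 genes passed this minimum. PSAT1 and GLUD1 were more than 1.5-fold lower in the group labelled TTP-tdTom, none was more than 1.5-fold higher, and the other 7 lay within 1.5-fold. PSAT1 was also the only gene of the 9 more than 2-fold lower, beside 8.3% of all genes compared. The count of 2 in 9 past 1.5-fold stands beside 22.7% of all genes compared that were more than 1.5-fold lower, and the count of 0 beside 2.37% that were more than 1.5-fold higher. The list as a whole was thus close to the background in its count. Its median log2 ratio was -0.18 against -0.24 for all genes, with a range from -1.18 to 0.061. An FPKM below that of tdTom was found for 8 of the 9, beside the 79.9% of all genes. Relative to the median of all genes, 4 of the 9 lay below (PSAT1, GLUD1, GLUL and SHMT1) and 5 above.

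**Figure D1:**
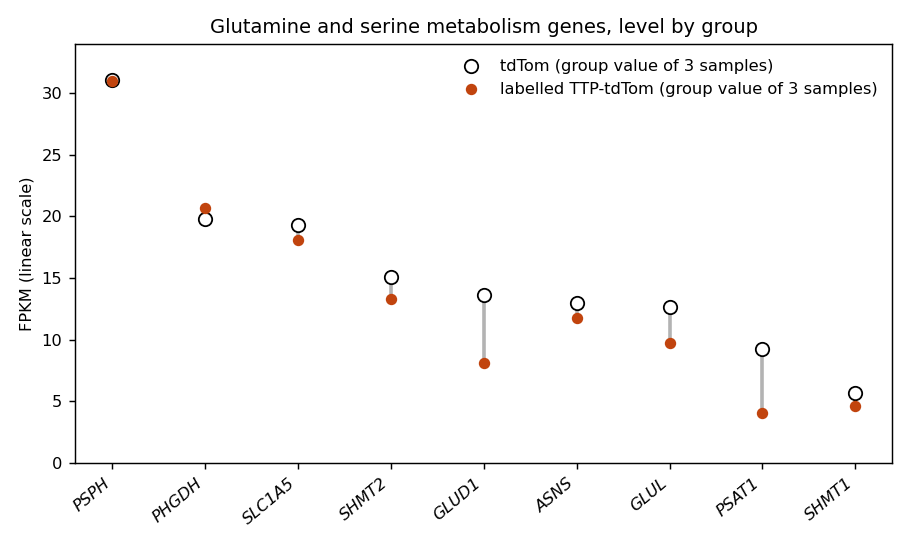
FPKM of the 9 genes on a linear axis, with open circles for tdTom and filled circles for the group labelled TTP-tdTom, each the single group value of 3 samples, and a grey line for the difference. PSAT1 (9.22 to 4.06) and GLUD1 (13.6 to 8.10) are farthest apart, while the symbols of PSPH coincide at 31.0.

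The 3 enzymes of serine synthesis differed among themselves more than any other chain of the list. PHGDH, which commits the glycolytic intermediate to serine, was at 19.8 FPKM in tdTom and 20.6 in the group labelled TTP-tdTom. It was the only gene of the 9 with a higher value in the group labelled TTP-tdTom, by 1.04-fold, a log2 ratio of 0.061. PSAT1, the aminotransferase of the middle step, was at 9.22 FPKM in tdTom and 4.06 in the group labelled TTP-tdTom. The level left was 44.1% of that in tdTom, a log2 ratio of -1.18, and only 4.72% of all genes compared had a lower ratio. PSPH, the phosphatase that releases serine, was at 31.0 FPKM in both groups, with a log2 ratio of -0.0016. The first and last enzymes thus stood at 104.3% and 99.9% of the tdTom level while the middle one was 2.27-fold lower. Measured per length, PHGDH stood at 2.15 times the FPKM of PSAT1 in tdTom and at 5.08 times in the group labelled TTP-tdTom. For PSPH over PSAT1 the same ratio of levels was 3.37 and 7.63.

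The position of the 3 loci differed as well. In GRCh37 the locus of PSAT1 spans 80911823 to 80945938 of chromosome 9 and that of PHGDH 120254419 to 120286849 of chromosome 1, and each holds no other row. The row of PSPH was part of a locus on chromosome 7 from 56077755 to 56160689, 82935 bases that it shared with 3 other named rows. Its value stood apart from theirs. The row of CCT6A and SUMF2 was at 155.5 FPKM in tdTom and 90.9 in the group labelled TTP-tdTom, the small nucleolar RNA SNORA15 at 48.3 and 84.1, and PHKG1 at 1.02 and 1.17. The coordinates given for PSPH are thus those of the shared locus, and fragments in regions where neighbours overlap could be assigned to either.

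Since TTP binds AU-rich elements in the 3′UTR, the annotated 3′UTRs of the 9 genes in GENCODE release 29 were searched on the mRNA strand. The heptamer TATTTAT (written as DNA) was absent from all 37 protein-coding transcripts of the 9 genes with an annotated stop codon. Among the 11464 genes compared whose longest 3′UTR could be searched, 36.2% held it, but most 3′UTRs of the 9 are shorter than the median of 1393 bases. In the deciles of 3′UTR length to which the 9 belong, the share of genes with the heptamer ran from 5.13% (ASNS) to 54.97% (GLUL), and it was 17.6% for SHMT2, SLC1A5 and PSPH. The shorter pentamer ATTTA, which lies inside the heptamer and was sought after the ratios had been seen, was present in the longest 3′UTR of 5 of the 9, against 74.2% of all genes. Only the copies of the genes past 1.5-fold, PSAT1 and GLUD1, are shown. The capitals mark the pentamer, and positions are counted from the first base after the stop codon.

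PSAT1, position 596 of 1007, chr9:78329672-78329696 of GRCh38, plus strand: atttctatacATTTAtatttctaat
PSAT1, position 648 of 1007, chr9:78329724-78329748 of GRCh38, plus strand: cacttttagaATTTAttaaatcctt
GLUD1, position 398 of 1265, chr10:87051339-87051363 of GRCh38, minus strand: actttaacacATTTAagaagtaggt
GLUD1, position 678 of 1265, chr10:87051059-87051083 of GRCh38, minus strand: aaacaatgtcATTTAtagcttatca

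In each of the 4 windows the pentamer stood once, and none was extended to the heptamer. The PSAT1 copies lie in the transcript with the long 3′UTR of 1007 bases only. The other RefSeq transcript of PSAT1 has a 3′UTR of 368 bases and held 0 copies, and the gene-level FPKM joins both transcripts. GLUL held 4 copies in 2701 bases, SHMT1 held 2 in 890 and SLC1A5 held 1 in 627, while ASNS, PHGDH, PSPH and SHMT2 held 0. These counts too depend on the transcript. The other annotated SLC1A5 transcripts held 0, and a RefSeq transcript of SHMT1 with a 3′UTR of 222 bases held 1. At least 2 copies in the longest 3′UTR were thus found in 4 of the 9, against 58.6% of all genes. These were the 4 genes with the lowest ratios of the list, from -1.18 for PSAT1 to -0.31 for SHMT1, and also the 4 with the longest 3′UTRs, from 890 bases for SHMT1 upwards against at most 695 (PSPH) for the others. The genes with 0 or 1 copy lay between -0.18 for SHMT2 and 0.061 for PHGDH. Over all genes the median log2 ratio was -0.11 with 0 copies, -0.16 with 1, -0.21 with 2, -0.27 with 3 and -0.48 with 4 or more. Along the same order the median 3′UTR length went from 447 to 2896 bases and the median GC content of the transcript went from 57.6% to 41.7%. The part of length and GC content in this order was not tested, and a copy of 5 bases is a match of letters and not a binding site.

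**Figure D2:**
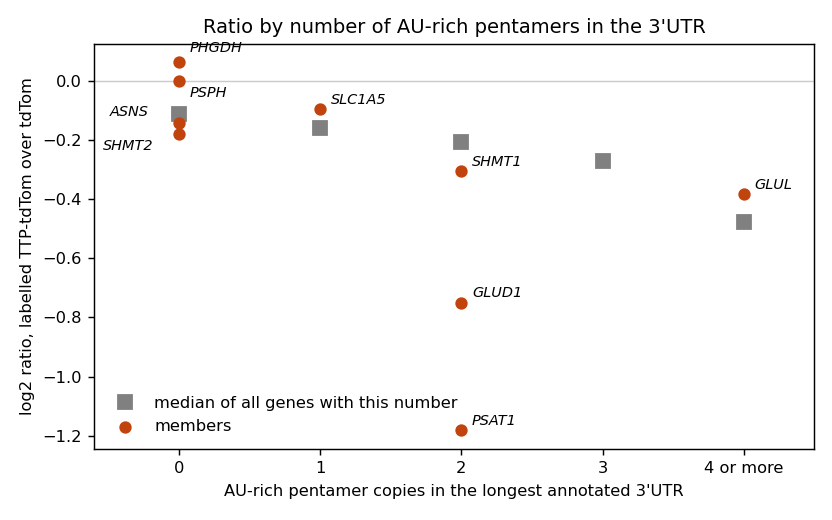
Log2 ratio (group labelled TTP-tdTom over tdTom) against the number of AU-rich pentamers in the longest annotated 3′UTR, with filled circles for the 9 genes and grey squares for the median of all genes with that number. PSAT1 and GLUD1, with 2 copies each, lie at -1.18 and -0.75, below the square at -0.21.

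GLUD1, the mitochondrial glutamate dehydrogenase, was the other gene past 1.5-fold. Its locus spans 88809959 to 88854776 of chromosome 10. Its FPKM was 13.6 in tdTom and 8.10 in the group labelled TTP-tdTom, which left 59.5% of the level, a log2 ratio of -0.75. A lower ratio was found for 15.9% of all genes compared. Centred on the median of all genes, its log2 ratio was -0.51, within 1.5-fold, whereas PSAT1, at -0.94, stayed past it. GLUD1 has near-identical copies in the genome, among which fragments could be split. The intronless copy GLUD2 was at 0.207 FPKM in tdTom and 0.176 in the group labelled TTP-tdTom. GLUL, the glutamine synthetase, which runs in the opposite direction along the pathway, lies on chromosome 1 from 182350839 to 182361341 and was at 12.6 and 9.69 FPKM. That is 76.7% of the tdTom level and a log2 ratio of -0.38, the third lowest of the 9. In tdTom the level of GLUD1 was 1.08 times that of GLUL, and in the group labelled TTP-tdTom it was 0.836 times. The order of this pair of enzymes was thus exchanged, by differences whose error is not known.

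SLC1A5, the main sodium-dependent importer of glutamine, was among the genes closest to no difference. Its locus spans 47278140 to 47291865 of chromosome 19. The level was 19.3 FPKM in tdTom and 18.1 in the group labelled TTP-tdTom, a log2 ratio of -0.096. The level of the importer was 1.42 times that of GLUD1 in tdTom and 2.23 times in the group labelled TTP-tdTom. ASNS, on chromosome 7 from 97481429 to 97501854, was at 12.98 and 11.76 FPKM, a log2 ratio of -0.14. Both ratios were below 0 but above the median of all genes. Centred on that median, which moves every log2 ratio up by 0.24, ASNS came to 0.096 and SLC1A5 to 0.14. ASNS is a textbook target of the amino acid response, in which the factor ATF4 binds a composite element in the promoter. The core TGATGNAA, with N for any base and both strands searched, stood once on the gene strand of 1 of the RefSeq promoter windows of ASNS, 68 bases before the start. It is shown as a match of letters only. Among other genes searched, a window of CHAC1 and 1 of SLC3A2 held a copy on the opposite strand, and the windows of ATF4, DDIT3, TRIB3, SESN2, SLC7A5 and MTHFD2 held none.

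ASNS promoter, chr7:97872458-97872487 of GRCh38.p14, minus strand, core in capitals: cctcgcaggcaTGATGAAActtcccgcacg

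Of 35116 RefSeq promoter windows, each from 250 bases before to 50 after a start, 3.62% held this core. Promoter windows were at hand for 7 of the 9 genes. Besides ASNS, 1 of the 3 windows of SLC1A5 held it, and the windows of GLUD1, GLUL, PHGDH, PSAT1 and SHMT1 did not. No match says only that these letters are not in the window.

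The serine hydroxymethyltransferases both lay within 1.5-fold. SHMT1, the cytosolic enzyme, was the lowest gene of the list in tdTom, with 5.67 FPKM there and 4.58 in the group labelled TTP-tdTom, a log2 ratio of -0.31. SHMT2, the mitochondrial enzyme, was at 15.1 and 13.3 FPKM, a log2 ratio of -0.18. Per length the mitochondrial form stood at 2.66 times the cytosolic one in tdTom and at 2.90 times in the group labelled TTP-tdTom, so that their balance differed little between groups. Their loci lie on chromosome 17 from 18218594 to 18266862 and on chromosome 12 from 57623356 to 57634892. SHMT1 shared its locus with SMCR8, which was at 7.82 and 7.69 FPKM, and SHMT2 shared its own with 3 rows of NDUFA4L2, the highest of them at 1.12 FPKM.

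Ordered by level, PSPH, PHGDH, SLC1A5 and SHMT2 were the first 4 genes in both groups. GLUD1 went from the fifth place in tdTom to the seventh, behind ASNS and GLUL. PSAT1 went from the eighth place to the ninth, behind SHMT1, and its level was 1.63 times that of SHMT1 in tdTom and 0.887 times in the group labelled TTP-tdTom. In tdTom the 9 genes stood between the 36.4th percentile (SHMT1) and the 80.7th (PSPH) of all genes compared by FPKM, so that none was at the floor of detection. Among GLUD1, ASNS and GLUL, which lay between 12.6 and 13.6 FPKM in tdTom, the order cannot be relied on without a spread.

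**Figure D3:**
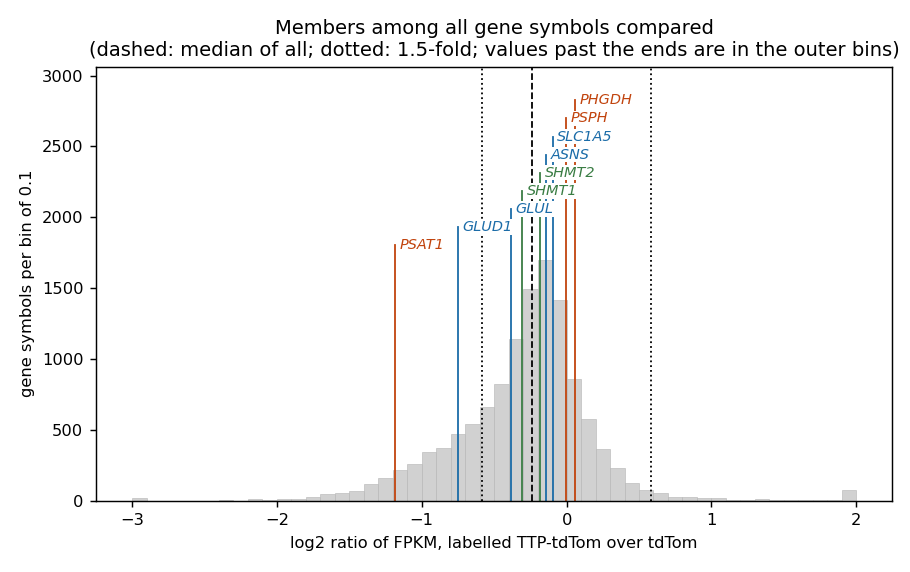
Number of gene symbols per bin of 0.1 in the log2 ratio of FPKM (group labelled TTP-tdTom over tdTom) for the 12511 genes compared, with values past the ends in the outer bins, the 9 genes as vertical lines and dotted lines at 1.5-fold. PSAT1 and GLUD1 lie left of the lower dotted line, and the other 7 lie between -0.38 and 0.061, around the dashed median of -0.24.

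Across all genes the ratio went with base composition. In the decile of genes with the lowest GC content of the transcript the median log2 ratio was -0.76 and 62.8% were more than 1.5-fold lower, whereas in the decile with the highest GC content the median was -0.088 and the share 3.57%. The values of the 9 genes were therefore set beside genes of like GC content. GC content was taken from 1 transcript per gene, that with the longest annotated 3′UTR, whereas the FPKM joins all transcripts of a gene. For PSAT1 this is the form with the long 3′UTR, and for SHMT2 and PHGDH a transcript without a RefSeq name. The GC content of the other transcripts was not computed. The PSAT1 transcript used has a GC content of 42.3%, the lowest of the 9, and genes in its decile had a median of -0.42. The log2 ratio of PSAT1 minus that median was -0.77, and 5.85% of the decile had a lower ratio. For GLUD1, at 46.4%, the same difference was -0.49, with 12.2% of the decile lower. It was -0.19 for GLUL, -0.16 for SHMT1 and -0.065 for SHMT2. SLC1A5, the most GC-rich of the 9 at 61.3%, differed from the median of its decile by 0.0038, and ASNS, PHGDH and PSPH by 0.12, 0.16 and 0.20. PSAT1 and GLUD1 thus remained the lowest of the 9 among genes of like GC content, with the transcripts used here. What part base composition has in these ratios was not tested.

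**Figure D4:**
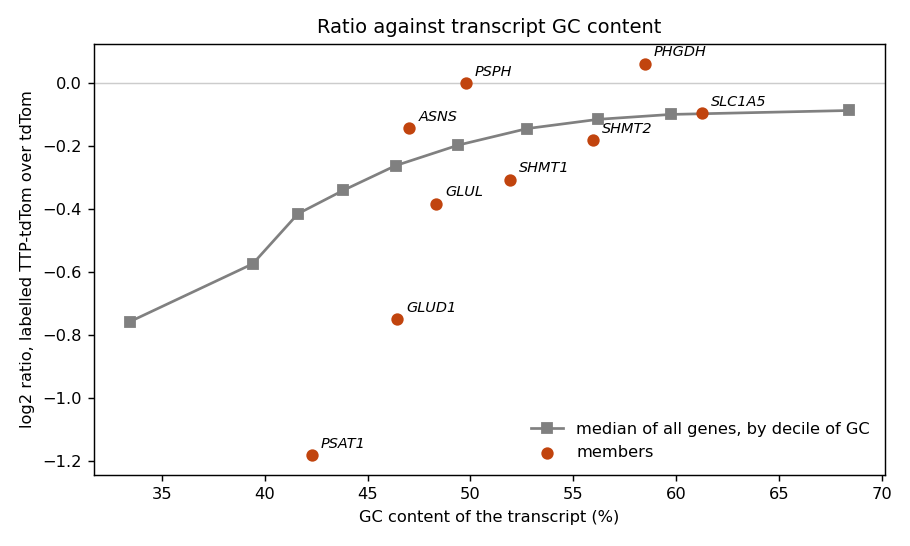
Log2 ratio (group labelled TTP-tdTom over tdTom) against GC content in percent of the transcript with the longest annotated 3′UTR. Filled circles are the 9 genes, and grey squares the median of all genes in each decile of GC content, placed at the middle of its range. PSAT1 and GLUD1 lie farthest below the squares, at -1.18 and -0.75.

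The other genes of the same pathways were taken from lists of names, chosen with earlier results of these data known. Their counts and medians are thus descriptions and not an independent comparison with all genes. Of the glutamine and glutamate enzymes, 10 of 12 passed the minimum, of which 3 were more than 1.5-fold lower and 0 more than 1.5-fold higher, with a median of -0.21. This count and those of the lists that follow stand beside the same 22.7% lower and 2.37% higher among all genes. GFPT1 and PPAT, which spend glutamine on hexosamines and on purines, had log2 ratios of -1.48 and -1.42. The mitochondrial aminotransferase GOT2, the most abundant of the list, was at 139.7 and 119.2 FPKM. Of the amino acid transporters, 6 of the 10 compared lay within 1.5-fold, while 4 were more than 1.5-fold lower and 0 higher. The 4 lower ones were the glutamine carriers SLC38A1 and SLC38A2, at -0.75 and -0.91, the cationic carrier SLC7A1 at -0.91 and the cystine carrier SLC7A11 at -1.58. SLC1A5 at -0.096 thus stood beside 2 other glutamine carriers with lower ratios, both named because they were past 1.5-fold. Minus the median of their GC deciles, however, SLC38A1 was at -0.33 and SLC38A2 at -0.16, against 0.0038 for SLC1A5, so that the contrast was smaller beside genes of like GC content. SLC3A2, the heavy chain that pairs with several carriers, was at 29.6 and 41.9 FPKM. After centring on the median of all genes, 3 of the 10 transporters were past 1.5-fold lower and 1 (SLC3A2, at 0.74) past 1.5-fold higher, against 13.3% and 4.61% of all genes.

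Of the folate one-carbon genes downstream of SHMT1 and SHMT2, 8 of the 11 compared were more than 1.5-fold lower and 0 higher, with a median of -0.80, while SHMT1 and SHMT2 themselves were at -0.31 and -0.18. MTHFD2, which oxidises the one-carbon unit that SHMT2 releases in mitochondria, was at 39.5 FPKM in tdTom and 17.7 in the group labelled TTP-tdTom, a log2 ratio of -1.16. MTRR was at -1.21 and TYMS at the edge of the threshold with -0.59. ALDH1L2, also mitochondrial and counted among the 8, was at 2.10 FPKM in tdTom and 0.914 in the group labelled TTP-tdTom. It thus reached the minimum of 1 only through the group in which it was higher. The median and the counts given here for this list all hold it, and none was computed without it. MTHFD1, the cytosolic enzyme, was at 55.5 and 45.7 FPKM. After centring on the median of all genes, 5 of the 11 were past 1.5-fold lower, against the same 13.3%. The median GC content of these 11 transcripts was 44.8%, below the 47.7% of all genes, and 10 of the 11 lay below the median of their GC decile. By definition, as many genes of a decile lie below its median as above. The median difference of the 11 from their deciles was -0.43, but MTHFD1 and MTHFD2L were close to it, at -0.016 and -0.039 from theirs.

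**Figure D5:**
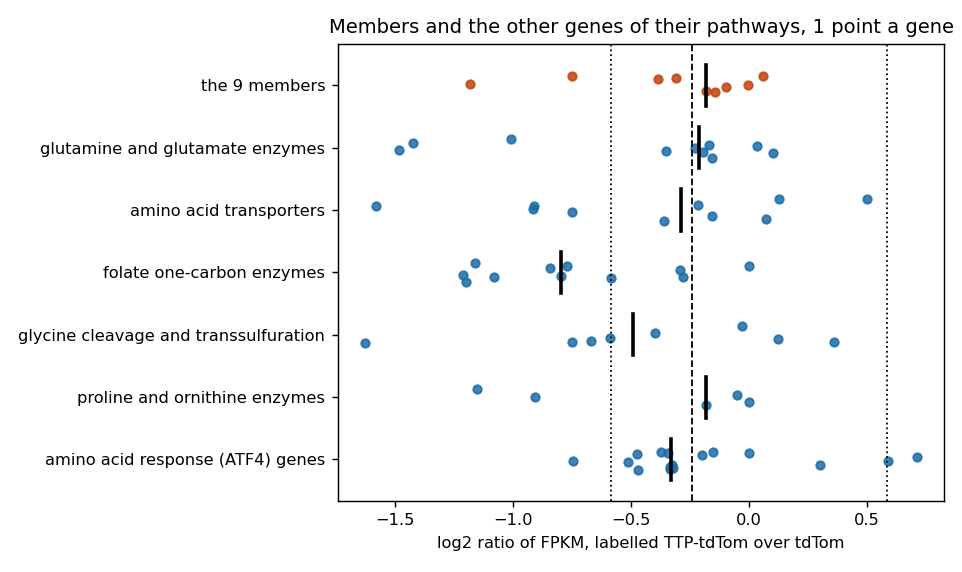
Log2 ratio (group labelled TTP-tdTom over tdTom) of each gene compared, 1 point a gene with vertical scatter for legibility, for the 9 genes and 6 lists of related genes; thick bars are list medians, the dashed line the median of all genes at -0.24 and the dotted lines 1.5-fold. The folate list has the lowest median, -0.80, against -0.18 for the 9 genes.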

How the data were processed

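RNA-Seq of 3 tdTom and 3 TTP-tdTom samples was aligned by the authors with TopHat2 2.0.13 to Hs37D5 (GRCh37 with decoy sequence) and assembled and compared with Cufflinks 2.2.1, as the submitters' processing notes and the methods state. The authors' deposited table gives 1 FPKM value per group at each of 406165 loci, 375947 of them without a symbol. Its fold changes, test statistics, p-values and q-values hold the authors' own comparison and were not used. Depth cannot be read from FPKM: at loci of 400 bases without a symbol, the 452 non-zero tdTom values were 452 different numbers.

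Here, a symbol was represented by the row with most RefSeq names, then the highest FPKM. Genes with a mean FPKM of at least 1 and above 0 in both groups were compared by log2 ratio with a pseudocount of 0, and 1.5-fold was the threshold. No replicate values were analysed, so no test was run. Members and lists were chosen with earlier results of these data known. From the lists, genes past 1.5-fold and up to 3 of the highest level could be named; ZFP36 and cell type markers were added, and GLUD2, ATF4, DDIT3, TRIB3, CHAC1, SLC7A5, GLDC and the rows sharing a locus were named after their values were seen. CTPS1 of the lists was not matched by symbol, and some list genes and markers are counted but not reported here by name. Sequences came from GENCODE release 29 (GRCh38; 91.6% of genes compared matched) and RefSeq promoters (GRCh38.p14); their coordinates are not those of the table. The alternatives were other pseudocounts, scalings, thresholds, minimum levels and row choices. The functions were tested on simulated data. Python 3.11.15, numpy 2.4.6, pandas 2.3.3 and matplotlib 3.10.9 were used.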

Additional observations from a re-analysis of the deposited data

How the results depend on the processing

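No paired analysis was possible because only group values were analysed, so no replicate could be left out either and no error is known. The number of genes more than 1.5-fold lower, 2, was 1 at a 2-fold threshold (PSAT1), beside 8.3% of all genes. It was 3 at the lowest threshold tried (with GLUL), beside 40.5%. After centring on the median of all genes, where GLUD1 came to -0.51, it was 1, beside 13.3%. At a mean FPKM of at least 10, which leaves 7 genes and removes PSAT1 and SHMT1, it was also 1, beside 24.2%. It was 2 under the other alternatives, beside 18.2% to 22.8% of all genes. The number past the threshold on the higher side was 0 under all, beside 0.64% to 13.1%. The median log2 ratio of -0.18 was 0.057 after centring, -0.13 with the same FPKM sum over loci with a symbol, -0.17 with a pseudocount of 1 and -0.14 at a mean FPKM of at least 10. Centring put SHMT2, ASNS, SLC1A5 and PSPH above 0 along with PHGDH. The same FPKM sum added 0.052 to each log2 ratio, which put PSPH above 0, at 0.050. PSAT1, wherever it was compared, lay between -1.18 and -0.94. The row choice altered no value of the 9 genes.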

Other observations

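Cysteine and glutathione synthesis, which draws on serine and on glutamate, was covered by a list of names with glycine cleavage. Of 8 genes compared, 4 were more than 1.5-fold lower in the group labelled TTP-tdTom and 0 higher, beside 22.7% and 2.37% of all genes, with a median log2 ratio of -0.49. The median difference from the GC deciles of these genes was -0.035, and 5 of the 8 lay below the median of their decile. GCLM, the modifier subunit of the rate-limiting enzyme of glutathione synthesis, was at 12.97 FPKM in tdTom and 4.21 in the group labelled TTP-tdTom, a log2 ratio of -1.62. GCLC, its catalytic partner, was at 20.7 and 13.03 FPKM. GSS, which completes glutathione, was at 36.8 and 36.1 FPKM. GCSH, at 286.1 and 190.3 FPKM, was at the edge of the threshold with -0.59. Centred on the median of all genes, 1 of the 8 was past 1.5-fold lower (GCLM) and 1 past 1.5-fold higher (GLDC), beside 13.3% and 4.61% of all genes. GLDC was of low level, at 1.48 FPKM in tdTom and 1.91 in the group labelled TTP-tdTom. Its log2 ratio was 0.36, within 1.5-fold, and centring moved it to 0.60, at the edge of the threshold.

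Of the proline and ornithine enzymes, 2 of the 5 compared were more than 1.5-fold lower, beside the same 22.7% of all genes. OAT, the mitochondrial aminotransferase between ornithine and glutamate semialdehyde, was at 39.0 and 17.6 FPKM. Of 16 genes of the amino acid response, 1 was more than 1.5-fold lower and 2 more than 1.5-fold higher, beside 22.7% and 2.37%. After centring, 0 were past 1.5-fold lower and 2 past 1.5-fold higher, beside 13.3% and 4.61% of all genes. The factor ATF4, in a row shared with a neighbouring gene, was at 43.4 and 37.9 FPKM. EIF2S1, the translation factor phosphorylated in this response, was the lower one, at 134.2 and 80.1 FPKM. The higher ones were both of low level, SESN2 at 2.61 and 3.93 FPKM and ATF3 at 0.773 and 1.27. ATF3 reached the minimum of 1 only through the group in which it was higher. Nothing is therefore read from the count of higher genes, before or after centring.

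Over the 60 list genes compared, 43.3% held the heptamer TATTTAT in the longest 3′UTR, against 36.2% of all genes. Of the 22 more than 1.5-fold lower, 13 (59.1%) held it, close to the 62.1% of all genes more than 1.5-fold lower. The 22 include ALDH1L2, which held 0 copies and reached the minimum of 1 only through the group in which it was higher. No share was computed without it.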
